A study of Mus musculus with 536 samples.

Results

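The mice described here are 21 of the 536 in the series: irradiated C57BL/6 mice of a small treatment set that were given granulocyte colony-stimulating factor (GCSF) or no treatment and were bled at 6 hr. They were chosen by their titles alone, which give the dose, the agent, the time and a mouse number. At 150 cGy there were 5 GCSF and 6 no treatment mice, and at 600 cGy there were 5 of each, so that 10 GCSF mice are set against 11 untreated ones. The titles of the whole small set (50 mice) share a first code, and nothing in the labels says when or how GCSF was given relative to irradiation. All 21 mice were 10 to 12 weeks old by the protocol, had received total body irradiation from a Cs137 source at 480 cGy/min, and were bled by terminal cardiac puncture into PAXgene fluid. The labels do not give their sex. Xist, the RNA that coats the inactive X chromosome, lay between 10.94 and 12.06 (log2) in all of them. The Y-linked gene Eif2s3y lay near the low end of the scale in all of them, at 3.00 to 3.41. Globin-reduced blood RNA was hybridised to Affymetrix Mouse 430A 2.0 arrays, and all levels below are log2 intensities, so that a difference of 1 is a 2-fold change. Each array was taken to be a separate mouse, and the number of mice limits the precision.

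Other mice of the series serve for comparison. Unirradiated mice of the same set received GCSF (6 mice) or nothing (6 mice). Irradiated mice of the same set received lipopolysaccharide (LPS, from the outer membrane of bacteria, which sets off inflammation), 5 at 150 cGy and 6 at 600 cGy. A separate sex and treatment set held 29 GCSF and 30 untreated mice at 200, 300 or 600 cGy and 6 hr, of both sexes.

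GCSF is the cytokine that drives the production and release of neutrophils. It binds the receptor encoded by Csf3r, which signals through JAK kinases and the transcription factor STAT3, and SOCS3 switches the signal off. In the marrow it lowers the retention signal between CXCL12 and its receptor CXCR4, and mature cells leave through CXCR2. Neutrophils carry antimicrobial proteins in primary granules, made early, and in secondary and tertiary granules, made later. Irradiation by itself depletes lymphocytes from the blood within hours. In whole blood, a change in the number of cells of a type and a change in RNA per cell cannot be told apart.

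The 21 arrays correlated with each other at 0.937 to 0.993 over 12393 genes, so that none was a copy of another. Several mice stood apart. At 150 cGy, untreated mouse 7 had the narrowest spread of intensities (interquartile range 2.52, against up to 3.03 in its group). Albumin RNA, a liver transcript, ranged from 5.22 to 13.87 at 150 cGy and from 5.85 to 12.97 at 600 cGy. Among the unirradiated controls, untreated mouse 10 had 7.23 for the B cell gene Cd79a, where the other 5 had 10.82 to 11.74, and 10.11 for Socs3, where the others had 6.53 to 7.95. Its Cdkn1a, a p53 target that radiation induces, was at 10.47, against 7.03 to 7.47 in the other 5 and 9.38 to 10.97 in untreated irradiated mice. Its mean over the p53 target list was 7.82, against 6.75 to 6.98 in the others. These values go against its label of 0 cGy, and whether the label is right was not tested. Unirradiated GCSF mouse 4 had 6.55 for the heart muscle gene Myh6, against 2.79 as the lowest of its group. In the sex and treatment set, 2 mice labelled 300 cGy and no treatment had Gbp2 at 12.12 and 12.55, where the other 8 lay between 7.40 and 9.08 and the LPS mice at that dose and time between 8.48 and 12.20. The main counts of called genes that rest on mouse 10 or on those 2 mice are given with and without them. Differences of single genes include these mice unless stated.

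GCSF was followed by a small number of changes in irradiated blood. With dose in the model, 17 genes rose and 3 fell (limma, adjusted p under the threshold of 0.05, 0.161% of 12393 genes). An unadjusted p under 0.05 was found for 612 genes, near the 1 in 20 of all genes that chance gives. The fitted rises were 8.56-fold for Prok2, 4.36-fold for Lipg, 2.73-fold for Il1rap, 2.67-fold for Ngp and 2.58-fold for Upp1. Those of Prok2 and Lipg start from untreated levels near the low end of the scale, where the Y-linked gene Eif2s3y lay at 3.00 to 3.41 in the same 21 mice, so that their size is uncertain, and that of Lipg averages unlike differences at the 2 doses. The genes that fell were Tnfsf13b, Prcp and Adssl1, by 1.66-fold, 1.43-fold and 1.43-fold. In 6 genes the GCSF and untreated mice did not overlap at either dose, all of them higher with GCSF (0.0484% of genes). No gene separated in the other direction at both doses (0% of genes). Those 6 genes, Prok2, Lipg, Il1rap, Upp1, Igfbp6 and Ifitm1, were among the 11 (9 rising and 2 falling) that stayed called in each of the 21 fits that left out 1 mouse. The number called fell to 11 without GCSF mouse 7 at 150 cGy and to 12 without GCSF mouse 6 at 600 cGy.

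The promoters of Prok2, the gene with the largest fitted difference, and of Steap4, the only called gene with a promoter entry whose window held a STAT-type motif, are shown as the 250 bases before the RefSeq start (build GRCm38.p6). Prok2 lies at chr6:99726393-99726642 on the minus strand and Steap4 at chr5:7960222-7960471 on the plus strand, and each sequence reads 5′ to 3′ along its gene. Capitals mark the motif match.
Prok2: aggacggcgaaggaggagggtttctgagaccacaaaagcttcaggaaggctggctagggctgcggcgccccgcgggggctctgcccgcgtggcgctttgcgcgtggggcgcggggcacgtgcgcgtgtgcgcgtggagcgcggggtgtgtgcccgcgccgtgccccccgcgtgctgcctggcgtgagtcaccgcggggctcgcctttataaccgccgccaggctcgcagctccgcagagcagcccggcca
Steap4: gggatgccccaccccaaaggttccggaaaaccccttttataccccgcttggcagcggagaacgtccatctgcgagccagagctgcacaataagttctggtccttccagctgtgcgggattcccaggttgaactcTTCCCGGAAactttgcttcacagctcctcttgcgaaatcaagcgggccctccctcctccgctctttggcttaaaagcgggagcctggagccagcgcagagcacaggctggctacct
The motif TTCNNNGAA and its stricter form TTCCNGGAA, each of which reads the same on both strands and of which the second is contained in the first, were searched from 250 bases before to 50 after the start. A promoter entry was found for 19 of the 20 called genes, and 1 of the 19, Steap4, held either motif, as TTCCCGGAA beginning 116 bases before the start. Of the 9887 array genes with a promoter entry, 8.45% held TTCNNNGAA and 1.35% held TTCCNGGAA. The match is a description of these letters only.

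Among secreted factors, Prok2 encodes prokineticin 2, a peptide made by myeloid cells that acts on blood vessels and on neutrophil mobilisation. Untreated mice at 150 cGy had Prok2 levels from 3.90 to 4.62 with a median of 4.41, and the GCSF mice had 7.44, 6.78, 7.62, 7.74 and 6.76. At 600 cGy the untreated mice had 7.22, 5.29, 4.66, 4.73 and 6.42, and the GCSF mice had 8.96, 8.02, 8.93, 9.80 and 9.07. Every GCSF mouse was above every untreated mouse of its dose, although 1 untreated mouse at 600 cGy reached the range of the GCSF mice at 150 cGy. The log2 difference was 3.10 ± 0.27 (SE, 10 against 11 mice, adjusted p = 1.28e-06), with 2.92 at 150 cGy and 3.29 at 600 cGy.

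Igfbp6, a secreted protein that binds insulin-like growth factors, had levels of 6.87 to 7.79 (median 7.41) in untreated mice at 150 cGy and of 8.38, 8.71, 8.25, 9.43 and 8.80 with GCSF. At 600 cGy its levels were 8.41, 7.40, 8.54, 8.12 and 8.23 without GCSF and 9.03, 8.97, 9.55, 9.92 and 9.29 with it. The groups did not overlap at either dose, and the log2 difference was 1.28 ± 0.16 (adjusted p = 0.000258). Wfdc18, a small secreted protein of the whey acidic protein family, rose by a log2 difference of 0.90 ± 0.15 (adjusted p = 0.00514). Its groups were apart at 600 cGy and overlapped at 150 cGy. Tnfsf13b encodes BAFF, a survival factor for B cells that myeloid cells release. It was lower with GCSF, at 4.93, 5.50, 5.36, 5.94 and 5.34 against 5.96 to 6.58 (median 6.10) at 150 cGy, and at 5.81, 5.74, 5.86, 6.52 and 5.75 against 6.84, 6.24, 6.69, 6.56 and 6.82 at 600 cGy. The groups were apart at 150 cGy, and at 600 cGy they overlapped through GCSF mouse 5. The log2 difference was -0.73 ± 0.12 (adjusted p = 0.00565).

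Receptors were among the rising genes. Il1rap is the co-receptor for interleukin 1 and related cytokines. Its levels at 150 cGy were 6.98 to 7.67 (median 7.21) without GCSF and 8.01, 7.70, 8.84, 9.25 and 8.48 with it. At 600 cGy they were 8.0, 7.20, 7.66, 7.38 and 8.74 without GCSF and 9.20, 9.43, 9.18, 10.32 and 9.43 with it. The log2 difference was 1.45 ± 0.20 (adjusted p = 0.000879), and the groups did not overlap, although GCSF mouse 4 lay just above the highest untreated mouse at 150 cGy. Ltb4r1, the receptor through which leukotriene B4 attracts neutrophils, rose by 0.72 ± 0.13 (adjusted p = 0.0145), with no overlap at 600 cGy. Kit, the receptor for stem cell factor on progenitors and mast cells, rose by 0.62 ± 0.12 (adjusted p = 0.0198), and its groups overlapped at both doses. Its levels over both doses were low, at 4.26 to 5.42 without GCSF and 5.08 to 6.07 with it. All lay below the median of each array (6.1 or higher), so that the size of the rise is uncertain.

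Ifitm1, an interferon-inducible membrane protein, was already among the more strongly expressed of the called genes. Its levels at 150 cGy were 11.43 to 12.43 (median 11.86) without GCSF and 12.95, 12.95, 12.93, 13.48 and 13.08 with it. At 600 cGy they were 12.83, 12.29, 12.49, 12.08 and 12.64 without GCSF and 13.36, 13.42, 13.46, 13.76 and 13.66 with it. The GCSF mice were the higher ones at both doses, and the log2 difference was 1.12 ± 0.12 (adjusted p = 2.18e-05). Gbp2, an interferon-inducible GTPase, rose by 0.68 ± 0.13 (adjusted p = 0.0198). They were the 2 of the 32 interferon response genes measured that rose, and none fell.

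Among enzymes, Lipg encodes endothelial lipase, a phospholipase that acts on lipoproteins. Untreated mice at 150 cGy had 3.82 to 4.52 (median 4.15), and the GCSF mice had 4.83, 5.23, 5.11, 6.00 and 5.07. At 600 cGy the untreated mice had 5.54, 4.39, 5.02, 4.54 and 5.12, and the GCSF mice had 8.32, 8.10, 7.56, 8.90 and 7.94. The rise at 600 cGy (log2 difference 3.24, adjusted p = 1.44e-07) was larger than that at 150 cGy (1.10, adjusted p = 0.0951), and the difference between the doses was 2.14 (adjusted p = 0.0148). Upp1, which splits uridine into uracil and a sugar phosphate, had 5.96 to 7.10 (median 6.70) without GCSF and 7.75, 7.66, 7.70, 8.03 and 7.58 with it at 150 cGy. At 600 cGy it had 7.58, 6.92, 7.32, 6.64 and 7.59 without GCSF and 8.78, 8.41, 8.84, 9.35 and 8.81 with it. The log2 difference was 1.37 ± 0.15 (adjusted p = 4.22e-05), with no overlap at either dose.

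Steap4, a metalloreductase of the membrane, rose by 1.11 ± 0.18 (adjusted p = 0.00514), from 7.15 to 7.97 (median 7.61) without GCSF to 8.75, 7.79, 9.17, 9.31 and 8.72 with it at 150 cGy, where GCSF mouse 4 lay within the untreated range. At 600 cGy the Steap4 groups also overlapped, at 8.73 to 9.96 with GCSF and 7.74 to 8.80 without. Adssl1, an enzyme of purine nucleotide synthesis, fell by 0.52 on the log2 scale (SE 0.08, adjusted p = 0.00342). At 600 cGy its untreated mice were within a narrow range, at 8.72, 8.84, 8.83, 8.82 and 8.65, and the GCSF mice all lay below, at 8.27, 7.95, 7.92, 8.02 and 8.15. Prcp, a lysosomal carboxypeptidase, fell by 0.52 (SE 0.10, adjusted p = 0.0377). It stayed called in 5 of the 21 fits that left out a mouse.

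Ngp, a protein of neutrophil secondary granules, had 6.31 to 7.52 (median 6.73) without GCSF and 8.01, 7.67, 8.20, 8.81 and 7.10 with it at 150 cGy. At 600 cGy it had 8.84, 9.34, 8.43, 7.06 and 8.07 without GCSF and 10.48, 9.22, 9.36, 10.90 and 10.20 with it. The groups overlapped at both doses, and the log2 difference was 1.42 ± 0.27 (adjusted p = 0.0247). The other called genes were Atp11a, a phospholipid flippase (0.93 ± 0.18), Flot2, a scaffold of membrane microdomains (0.73 ± 0.14), and Dusp16, a phosphatase of stress-activated MAP kinases (0.68 ± 0.13). Atxn10 (0.61 ± 0.12) and Vasp, a regulator of actin filaments (0.50 ± 0.10), were the smallest rises and are named after their values were seen. Vasp was called in 6 of the 21 fits that left out a mouse, Atp11a in 12, Ngp in 14 and Atxn10 in 15.

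**Figure D1:**
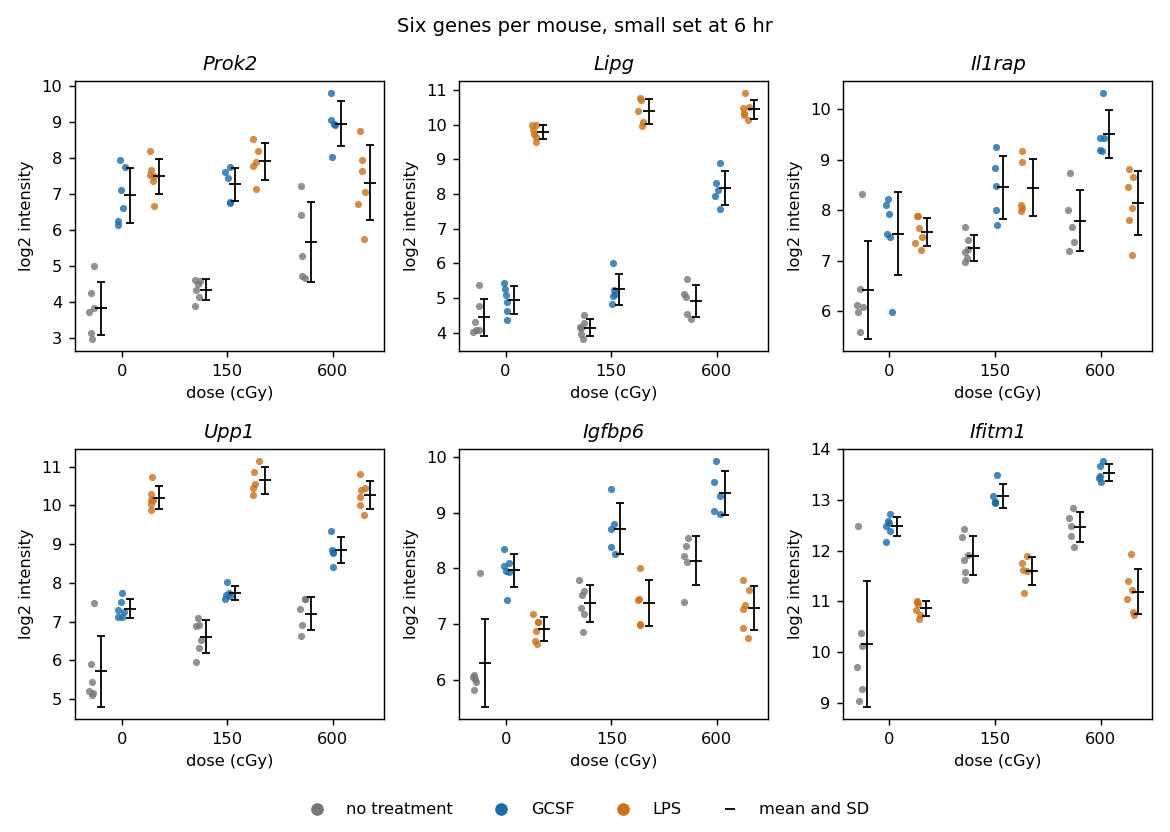
Log2 intensity of Prok2, Lipg, Il1rap, Upp1, Igfbp6 and Ifitm1 in each mouse of the small set at 6 hr, by dose in cGy, for no treatment, GCSF and LPS, with the group mean and SD beside the points. At 150 and 600 cGy every GCSF point lies above every no treatment point in all 6 panels, and at 600 cGy Lipg spans 7.56 to 8.90 with GCSF against 4.39 to 5.54 without.

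The counts of called list members are read against the 0.161% of all genes that were called, so that a count of 0 in a list of this size is near the background and is no result about the list. Of the 26 measured genes of the receptor and JAK-STAT list, none passed in either direction, with a median log2 difference of 0.03 (median over all genes -0.00345). Csf3r, the receptor itself, had levels of 11.48 to 12.19 (median 11.84) without GCSF and 11.65, 11.89, 11.67, 12.49 and 11.75 with it at 150 cGy. Its difference was 0.15, with a 95% interval from -0.08 to 0.39. Socs3, the feedback inhibitor, had a difference of -0.02 (interval -0.42 to 0.37), with 9.41 to 10.63 without GCSF and 9.50, 9.21, 9.88, 10.58 and 10.18 with it at 150 cGy. Stat3 had a difference of 0.12 (interval -0.15 to 0.39).

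None of the 27 measured mature neutrophil genes passed, with a median of 0.11, and 21 of them were above 0. S100a8, a subunit of calprotectin, had a difference of 0.11 (interval -0.05 to 0.28). Its irradiated untreated mice, at 13.44 to 14.01, already lay near the highest value of any array (14.85), and GCSF mouse 5 at 600 cGy reached 14.26. Whether the top of the scale limited a further rise was not tested. The difference was 0.19 (-0.11 to 0.50) for S100a9, its partner, 0.14 (-0.17 to 0.46) for the chemokine receptor Cxcr2 and 0.17 (-0.28 to 0.63) for the collagenase Mmp8. Among 15 secondary and tertiary granule genes, Ngp alone rose and none fell (median 0.09). None of 6 primary granule genes passed (median -0.08). Of 18 genes of neutrophil retention and trafficking, Prok2 rose and none fell (median 0.06). Of 31 NF-kB and inflammatory genes Il1rap rose and none fell (median 0.08), and of 14 eosinophil, basophil and mast cell genes Kit rose and none fell (median 0.14).

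None passed among the p53 targets (26 genes, median -0.05), which include Cdkn1a, the cell cycle inhibitor that radiation induces, at -0.08 (interval -0.34 to 0.17). None passed either among the B cell (19, median -0.13), MHC class II (9, -0.19), T cell (21, 0.07), NK cell (15, 0.10), monocyte (15, -0.06), platelet (19, -0.02), erythroid (25, -0.11), globin (6, -0.06) or plasma cell genes (7, -0.01). The same held for cell cycle (38, -0.09), immediate early and stress (27, 0.08), glycolysis (15, 0.07), NADPH oxidase (6, -0.04), survival and death (14, -0.03) and Fc, complement and pattern receptor genes (19, 0.08), and for the cardiomyocyte (13, 0.05) and sex-linked lists (4, -0.06). All 15 hepatocyte genes were above 0 (median 0.84) and none passed. The hepatocyte median was -0.12 at 150 cGy and 2.04 at 600 cGy. Alb, at 1.33 (interval -0.86 to 3.52), was at 11.60, 10.48, 11.66, 12.97 and 9.84 in the GCSF mice at 600 cGy and at 12.56, 8.83, 6.00, 5.85 and 10.65 in the untreated ones. With Alb as a covariate 13 genes were called (11 rising, 2 falling), among which Atp11a, Ngp, Flot2, Kit, Dusp16, Prcp, Atxn10 and Vasp were not included. The part of the liver transcripts in the other results was not tested.

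**Figure D2:**
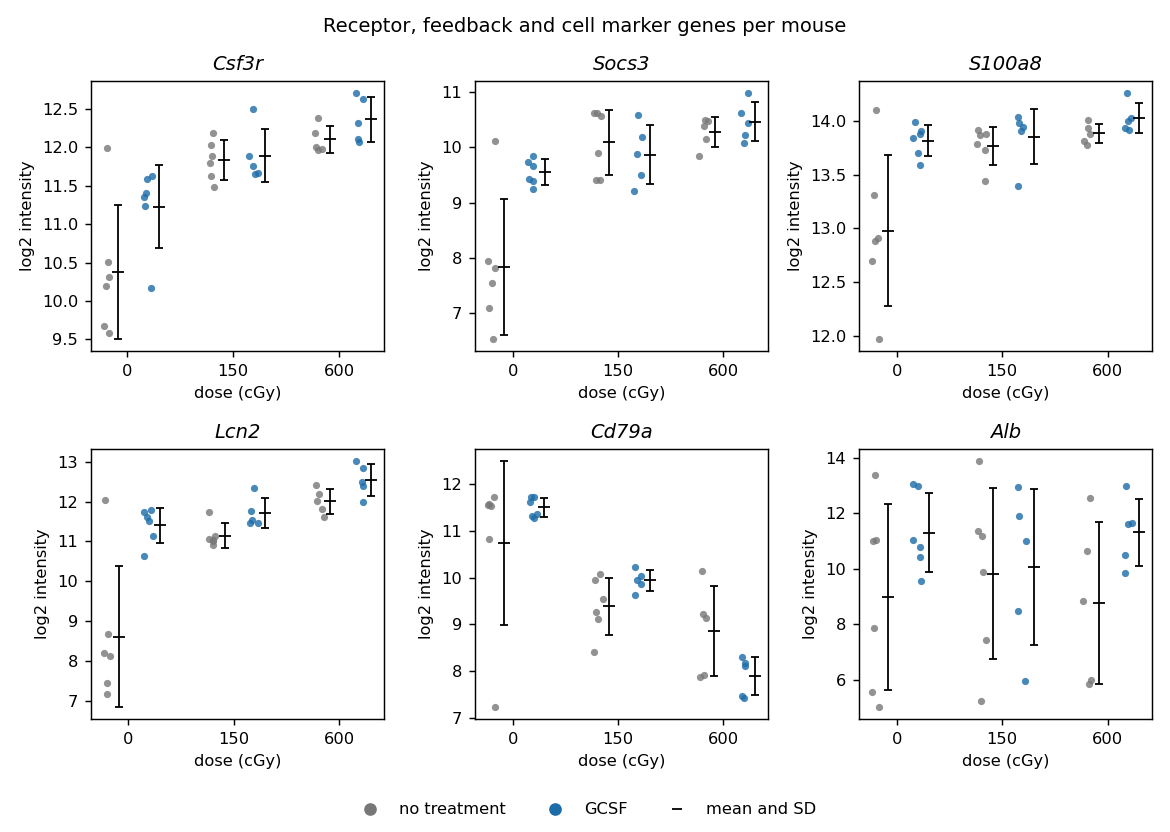
Log2 intensity of Csf3r, Socs3, S100a8, Lcn2, Cd79a and Alb in each mouse of the small set, by dose in cGy, for no treatment and GCSF, with the group mean and SD. At 0 cGy untreated mouse 10 is the high point for Socs3 (10.11) and the low point for Cd79a (7.23), and at 150 and 600 cGy the GCSF and no treatment points of Csf3r, Socs3 and S100a8 overlap.

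The effect was then read within each dose. At 150 cGy 8 genes rose and 1 fell (0.0726% of genes), and at 600 cGy 23 rose and 30 fell (0.428%). The balance at 600 cGy was not stable: it was 25 against 22 with median centring, 28 against 23 with averaged probe sets, 17 against 4 without GCSF mouse 3 and 8 against 1 without GCSF mouse 5 of that dose. Prok2, Igfbp6, Ifitm1 and Upp1 rose at each dose. At 150 cGy Nsg2 (0.92) and Fdps, an enzyme of the cholesterol pathway (0.86), also rose, and the choline transporter Slc44a1 fell by 0.66. Cd4, the helper T cell co-receptor, rose by 0.57. At 600 cGy Trem1, a receptor that amplifies neutrophil and monocyte activation, rose by 1.27 (adjusted p = 0.0151), as did Ankrd22 by 1.27. Trem1 spanned 8.84 to 9.66 with GCSF and 7.17 to 8.41 without. Among the called genes, the largest falls at 600 cGy were those of Cryl1 (-1.63), the tubulin-binding Stmn1 (-1.37) and the replication factor Pclaf (-1.01). The lectin Clec10a (-1.0), the cell cycle subunit Cks1b (-0.99) and Selenoh (-0.95) came next. The count at 600 cGy ranged from 8, without untreated mouse 5 at 600 cGy, to 210, without untreated mouse 7 at 150 cGy. It moved by over 1.5 times when any of the 5 GCSF mice at 150 cGy was left out (28 to 34). The same was true of untreated mouse 6 at 150 cGy (35), of GCSF mice 1, 3, 4, 5 and 6 at 600 cGy (22, 21, 27, 9 and 106) and of untreated mice 3 and 4 at 600 cGy (16 each). At 150 cGy the count was 3 to 5 without GCSF mouse 4, 5 or 9 or untreated mouse 5 or 7 of that dose.

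The effect of GCSF differed between 600 and 150 cGy in 214 genes (1.73%), of which 64 had the higher difference at 600 cGy and 150 the lower. That split was 79 against 90 with median centring, and 10 against 10, 12 against 9 and 7 against 5 without GCSF mouse 4 or 3 at 600 cGy or GCSF mouse 5 at 150 cGy. Of the 21 measured T cell genes 7 were among the lower and none among the higher (median -0.88, median over all genes 0.0262), namely Cd3d, Cd4, Cd5, Cd2, Ccr7, Bcl11b and Cd27. Bcl11b, a transcription factor of T cell identity, differed by 0.88 at 150 cGy and -0.58 at 600 cGy. Its levels with GCSF were 6.81 to 7.04 at 150 cGy and 4.94 to 6.60 at 600 cGy, against 5.44 to 6.55 and 5.71 to 6.48 without. Of 38 cell cycle genes 5 were lower (Mcm5, Mcm6, Mcm7, Pcna and Cdt1, all parts of DNA replication) and none higher. Of 19 platelet genes 3 were higher (Gp9, Clec1b and Cavin2) and none lower, with a median of 0.55. P2ry12, the platelet receptor for ADP, differed by -0.48 at 150 cGy and by 0.86 at 600 cGy. The B cell list had medians of 0.34 at 150 cGy and -0.66 at 600 cGy, with Blk lower among 19 genes.

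The mean level of the T cell list spanned 8.15 to 8.40 with GCSF and 7.53 to 8.15 without at 150 cGy, and 6.73 to 7.69 with GCSF and 7.40 to 7.65 without at 600 cGy. The platelet list spanned 11.25 to 11.51 with GCSF and 11.02 to 11.23 without at 600 cGy. At 150 cGy it spanned 10.61 to 11.12 with GCSF and 10.98 to 11.60 without, so that the groups overlapped. The T cell groups overlapped at 600 cGy, and the platelet groups did not. How many genes or lists separate at a single dose was not counted. The count of 214 rested on single mice: it was 12 without GCSF mouse 5 at 150 cGy or untreated mouse 3 or 4 at 600 cGy, and 613 without GCSF mouse 6 at 600 cGy. It was 14 to 21 without GCSF mouse 9 or untreated mouse 6 at 150 cGy, GCSF mouse 3, 4 or 5 at 600 cGy or untreated mouse 5 at 600 cGy. It was 62 to 108 without GCSF mouse 4 or 7 or untreated mouse 7 at 150 cGy, and 353 to 451 without GCSF mouse 3 or untreated mouse 4 or 8 at 150 cGy or untreated mouse 1 at 600 cGy.

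**Figure D3:**
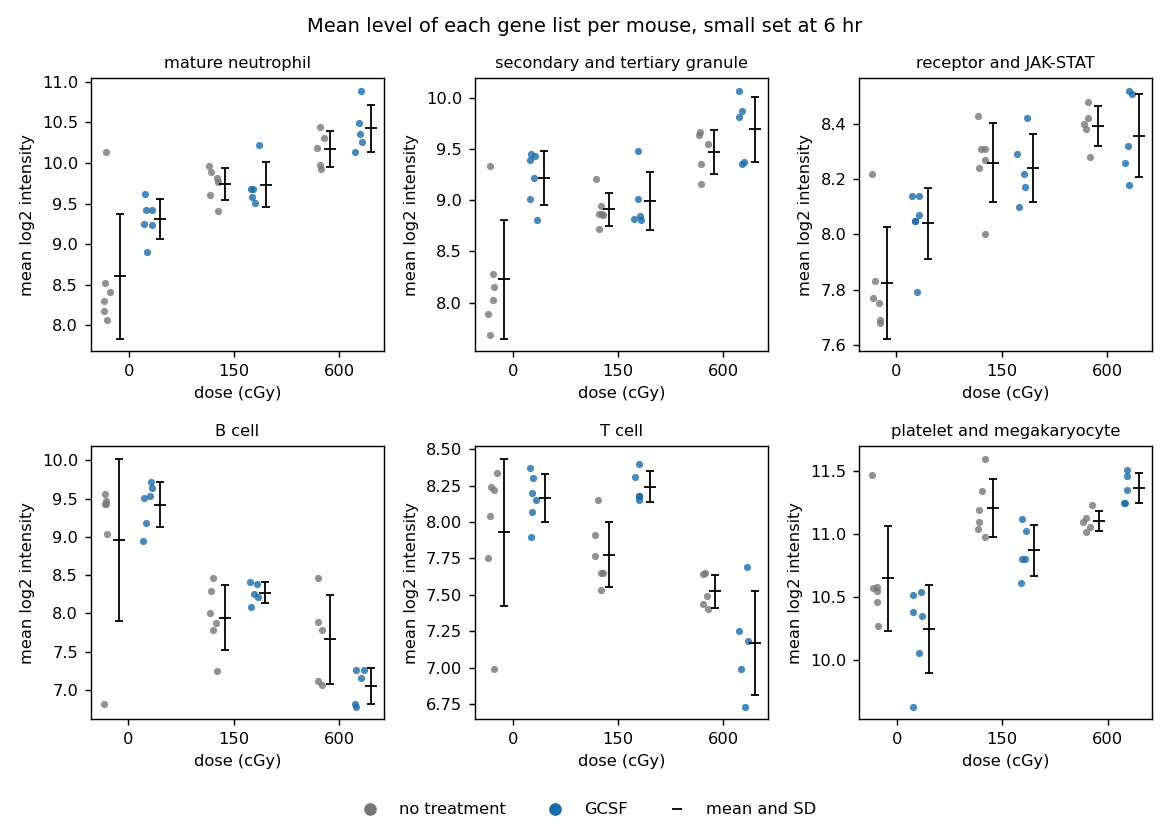
Mean log2 intensity over the measured genes of 6 lists in each mouse of the small set, by dose in cGy, for no treatment and GCSF, with the group mean and SD. The untreated mice have mean mature neutrophil levels of 8.60, 9.74 and 10.17 in order of dose (0, 150, 600 cGy), and the irradiated ones overlap with the GCSF mice. The mean at 0 cGy includes untreated mouse 10, and the median there is 8.35.

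Unirradiated mice of the same set show what GCSF did without radiation. At 0 cGy 36 genes rose and none fell (0.29% of genes). They included 9 of the 17 rising genes of the irradiated mice (52.9% of the 17 and 25% of the 36), and 16 of the 17 had the same sign. Prok2 rose by 3.14 ± 0.39 (adjusted p = 4.68e-05), from 2.97 to 5.00 (median 3.78) to 6.13 to 7.94 (median 6.86). The granule genes Lcn2 (2.79) and Ngp (2.59), the neutrophil gene Lrg1 (2.40) and Acod1, the enzyme that makes itaconate (2.01), rose, as did Socs3 (1.72, adjusted p = 0.0244). Of the mature neutrophil list 3 of 27 rose (median 0.76) and of the secondary and tertiary granule list 4 of 15 (median 0.98), and none fell.

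The mouse labelled 0 cGy, untreated mouse 10, has levels like those of irradiated mice, as given above, and the counts at 0 cGy change with it. Without it 140 genes rose and 21 fell (1.3%), among them 10 of the 17 rising genes and 1 of the 3 falling ones. The log2 differences then were 3.38 for Prok2, 3.47 for Lcn2, 2.75 for Ngp, 3.06 for Lrg1, 2.48 for Acod1 and 2.17 for Socs3. The mature neutrophil list then had 15 of 27 rising (median 1.04), the granule list 10 of 15 (median 1.16) and the receptor and JAK-STAT list 5 of 26, with Csf3r at 1.17 ± 0.21 (adjusted p = 0.00102). The count of 36 was 9 without untreated mouse 8, 11 without untreated mouse 1, and 16 to 22 without untreated mouse 3 or 9 or GCSF mouse 1 or 3, and it was 61 without GCSF mouse 4.

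The difference between the effect in irradiated and in unirradiated mice passed in no gene with all mice (0% called). In limma 967 genes had an unadjusted p under 0.05, where chance gives about 1 in 20 of the 12393 genes. Other settings gave 0 to 6 genes, and leaving out any mouse but mouse 10 gave 0 to 2. Without mouse 10 it passed in 34 genes (0.274%), 1 higher and 33 lower in irradiated mice. The higher one was Lipg (1.49 ± 0.28, adjusted p = 0.0102). The lower ones included Lcn2 (-2.92), Lrg1 (-2.63), Socs3 (-2.19), Chil1 (-1.88), Il1r2 (-1.82), Ifitm1 (-1.66) and Cxcr2 (-1.36). Mouse 10 was singled out by its values, Socs3 among them, and was also the highest untreated unirradiated mouse for Lcn2, Ifitm1 and Cxcr2. Leaving it out raises the effect in unirradiated mice for such genes, so that the choice of mouse and these differences are not independent. The 33 lower genes held 8 of the 27 mature neutrophil genes and 5 of the 15 secondary and tertiary granule genes. S100a8 was among the 8, with irradiated untreated levels near the top of the scale. Socs3 spanned 9.41 to 10.63 in untreated mice at 150 cGy and 9.25 to 9.85 in unirradiated GCSF mice. Prok2 (-0.27), Il1rap (-0.04), Igfbp6 (-0.70) and Upp1 (-0.60) had adjusted p-values of 0.453 to 0.981 for that difference in limma without mouse 10.

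The same agent, time and control were available in the sex and treatment set, whose mice were fitted on their own with dose and sex in the model. There 245 genes rose and 19 fell (2.13%). Of the 17 rising genes 13 also rose there (76.5% of the 17 and 5.31% of the 245), and all 17 had the same sign. None of the 3 falling genes was called there. With both sexes pooled, all 3 had the same sign over 200 to 600 cGy, and 2 of the 3 had it at 600 cGy alone. Fitted apart, the sexes had opposite signs for each of these genes, as given below. Prok2 differed by 2.98 ± 0.30 (adjusted p = 1.33e-10), Il1rap by 2.28 ± 0.22, Steap4 by 1.96 ± 0.24, Lipg by 1.83 ± 0.33 and Ifitm1 by 1.82 ± 0.21. Tnfsf13b, at -0.07 ± 0.14, and Prcp, at -0.05 ± 0.09, were near 0. At 600 cGy alone, the dose both sets hold, 103 genes rose and 17 fell (0.968%), and 12 of the 17 were among them. Prok2 spanned 5.59 to 10.04 (median 9.21) with GCSF and 5.03 to 6.22 (median 5.70) without at that dose.

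Without the 2 untreated mice at 300 cGy that stood apart in Gbp2, 360 genes rose and 58 fell (3.37%). Of the 17 rising genes 15 were among the 360, with Vasp (0.69) and Dusp16 (0.65) added. Gbp2, by which the 2 mice were singled out, is itself 1 of the 17. They were also high for Lipg, at 9.64 and 10.55 against 3.74 to 4.37 in the other 8, and for Ngp and Upp1. Leaving them out raises the differences of such genes, so that the choice of mice and these results are not independent. At 600 cGy the count was then 181. Over 200 to 600 cGy the differences without those mice were 3.24 for Prok2, 2.41 for Il1rap, 2.12 for Steap4, 2.23 for Lipg and 1.90 for Ifitm1. In the full set, leaving out 1 mouse of every group at a time gave 113 as the lowest count over 200 to 600 cGy, with mouse 3 of each left out. At 600 cGy it gave 8, 26 and 34 without mouse 1, 2 or 3. Sexes fitted apart, with those 2 mice included, gave Prok2 differences of 2.66 ± 0.41 in 29 females and 3.29 ± 0.40 in 30 males. Tnfsf13b was 0.40 ± 0.19 in females and -0.52 ± 0.15 in males. Prcp was -0.33 ± 0.11 in females and 0.22 ± 0.12 in males, and Adssl1 was 0.05 ± 0.15 and -0.71 ± 0.24. The difference between the sexes was not tested.

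More neutrophil genes were called in this larger set, where 2.13% of all genes were. Among the 27 measured genes of mature neutrophils, 13 were called and all 13 were higher with GCSF (median 0.61). They included Csf3r (0.76), Mmp8 (1.34), Cxcr2 (0.96) and S100a8 (0.52), and 6 of 15 secondary and tertiary granule genes rose. Without the 2 mice the numbers were 17 and 9. The difference of the effect at 600 cGy between the sets was tested directly. No gene passed (0% called), and 504 had an unadjusted p under 0.05 in limma, where chance gives about 1 in 20 of the 12393 genes. The mature neutrophil list had a median of -0.49 for the difference between the sets, lower in the small set. Array weights in place of equal weights gave 616 genes, and leaving out male GCSF mouse 4 of the larger set gave 1.

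**Figure D4:**
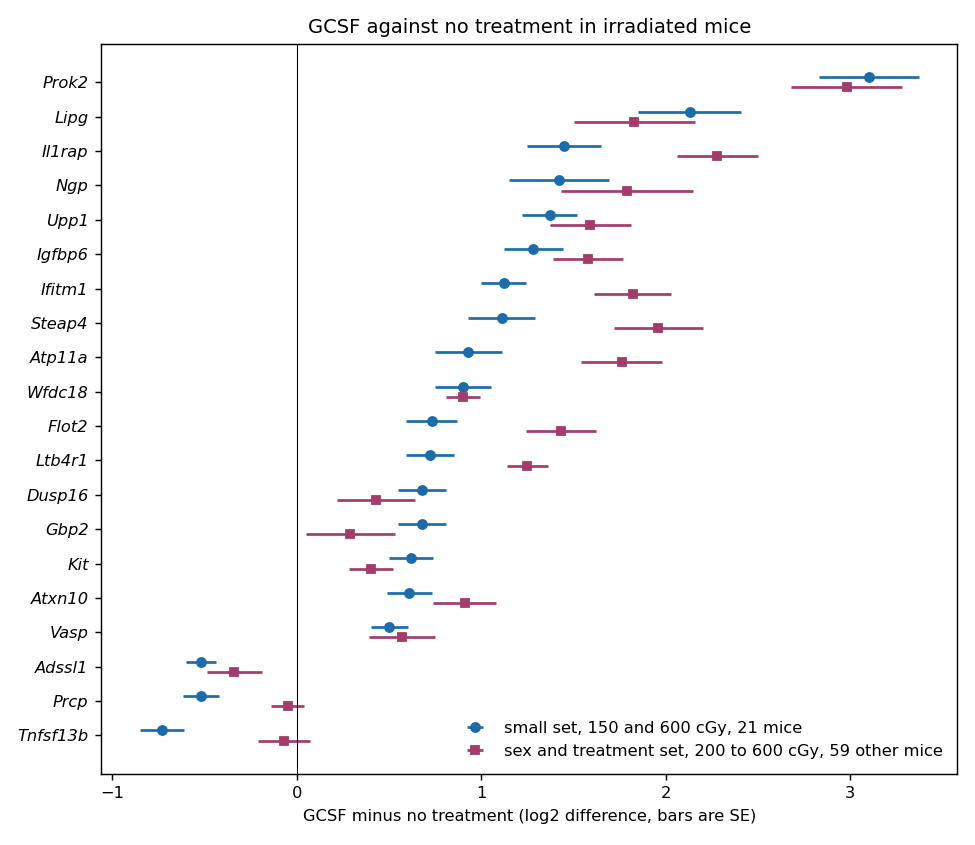
Log2 difference between GCSF and no treatment, with SE bars, for the 20 genes called in the 21 irradiated mice of the small set (circles) and for the same genes in 59 irradiated mice of the sex and treatment set (squares). All 17 genes right of 0 in the small set lie right of 0 in the other set, and Tnfsf13b and Prcp lie near 0 there.

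GCSF and LPS were compared directly in the irradiated mice of the small set, so that the untreated mice did not enter. In all, 3325 genes were higher with GCSF and 3543 lower (55.4%). The split moved to 3148 against 2124 when dim genes were left out (median of the genes kept 0.0846), and to 2867 against 4801 when arrays were centred on their medians, which shifted the median of all genes from -0.0574 to -0.119. Of the 17 genes that rose with GCSF, 8 were higher with GCSF than with LPS, 5 were lower and 4 were not called. Ifitm1 (1.93), Igfbp6 (1.72) and Flot2 (1.5) were higher with GCSF. Lipg (-3.64), Ngp (-3.40), Gbp2 (-2.43), Upp1 (-2.14) and Dusp16 (-1.70) were lower with GCSF. Prok2, at 0.55 (adjusted p = 0.199), spanned 7.14 to 8.53 at 150 cGy and 5.75 to 8.76 at 600 cGy in the LPS mice. Its mean with GCSF was below that with LPS at 150 cGy (7.27 against 7.91) and above it at 600 cGy (8.96 against 7.31), so that the pooled value averages opposite directions, and the difference within each dose was not tested. All 3 genes that fell with GCSF were lower still with LPS, with Adssl1 1.95 higher with GCSF. The chemokine genes Cxcl10 (-5.75) and Ccl3 (-4.84) and the cytokine Il6 (-4.72) had the lower levels with GCSF.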

How the data were processed

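Peripheral blood RNA was measured on 536 arrays. The authors deposited log2 intensities per probe set, made with RMA in the affy package per the submitters' processing notes. No version, and no statement of whether the sets were normalised together, is given in the sources used here. Of 22690 probe sets, 64 controls, 1555 with no symbol and 691 that name more than 1 gene were not used. The other 20380 stood for 12393 genes, a gene with more than 1 being read from its brightest probe set by mean over the series. Comparisons were made in limma 3.58.1 (R 4.3.3), whose moderated p-values were adjusted over the 12393 genes by the Benjamini-Hochberg method. Dose was a factor for the 21 mice, and group means served for effects within a dose and for differences between effects. The fit was tested on simulated data. Tables were made in Python 3.11.15 with pandas 2.3.3 and plots with matplotlib 3.10.9.

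The mice, the 27 gene lists and the tests were chosen with earlier results of these data known. The test between the 2 sets and the fits without 2 untreated mice at 300 cGy were added after the data were seen. Untreated mouse 10 at 0 cGy was singled out by its values, and the gene and list results without it were added after that. Named are the 15 largest rises and 15 largest falls among called genes with the same sign at both doses. In other comparisons the 6 and 6 largest among called genes are named. Up to 5 genes per list by smallest p, and fixed pathway and cell type genes, are named too. Members of lists that passed a comparison were also named after their values were seen. Mouse numbers repeat between groups. Same-numbered irradiated mice correlated at -0.456 to 0.272 in their deviations from group means, so that the numbers were not taken to pair mice. Promoters came from RefSeq (GRCm38.p6).

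The alternatives were all 9 groups in the fit, mouse number as a block, removal of dim genes (below percentile 30 of mean level), averaged probe sets per gene, quantile normalisation, median centring, a trended and robust prior, array weights, covariates (Eif2s3y, Alb, interquartile range), a minimum log2 difference of 0.5, and leaving out mice. For single genes they were followed for the genes whose difference in the 21 mice the text prints, a set fixed after sign changes had been seen.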

Additional observations from a re-analysis of the deposited data

Results flagged for a closer look

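Within the 4 groups of irradiated mice, 172 sets of values (43 genes) were examined for a mouse far from its group, and 13 were found, where chance gives about 1 in 20. GCSF mouse 7 at 150 cGy was high for Ifitm1 (13.48), Csf3r (12.49) and Cxcr2 (9.68). Untreated mouse 7 at 150 cGy was low for Atp11a (5.58), Atxn10 (9.04) and Xist (11.28). GCSF mouse 4 at 150 cGy was low for S100a8 (13.40) and Mdm2 (8.40), and GCSF mouse 9 at that dose was high for Cebpb (11.42). At 600 cGy, GCSF mouse 5 was high for Il1rap (10.32) and Tnfsf13b (6.52), untreated mouse 4 was high for Cd3e (9.43) and untreated mouse 7 was low for Alas2 (14.26).

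For the difference of the GCSF effect between 600 and 150 cGy, the 6 largest values in each direction among the 214 called genes are given. Genes that were not called did not enter this choice. The count of 214 was 12 to 613 with 1 mouse left out. The effect of GCSF was higher at 600 cGy for Lipg (2.14), Gsta2 (1.75), Gad1 (1.38), P2ry12 (1.34), Rhoj (1.25) and Lgalsl (1.23). It was lower for Icam2 (-1.89), Cryl1 (-1.89), Tppp3 (-1.81), Igfbp4 (-1.73), Bcl11b (-1.45) and Scpep1 (-1.45).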

How the results depend on the processing

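Counts of called genes are given first for GCSF against no treatment in the 21 irradiated mice (20 genes). They were 38 with array weights, 41 with the array interquartile range as a covariate, 13 with Alb as a covariate and 18 to 28 under the other settings apart from the block. Leaving out 1 mouse gave 11 to 24. At 150 cGy averaged probe sets gave 5 and leaving out mice 3 to 12. At 600 cGy all 9 groups in the fit gave 32, array weights 397 and leaving out mice 8 to 210. The difference between doses had 50 genes with all 9 groups, 134 with quantile normalisation and 12 to 613 with a mouse left out. At 0 cGy all 9 groups gave 68, array weights 224 and leaving out mice 9 to 161. The difference between irradiated and unirradiated mice had 1 gene with all 9 groups, without dim genes, with the mean of probe sets or with the trended and robust prior, 6 with array weights, and 0 to 34 with a mouse left out. GCSF against LPS kept 2299 genes at a log2 difference of at least 0.5, and 6231 to 7177 with a mouse left out. In the sex and treatment set array weights gave 2594, the minimum difference 163, the fit without 2 mice 418 and leaving out mice 113 to 242. At 600 cGy in that set quantile normalisation gave 293, array weights 1188, the fit without 2 mice 181 and leaving out mice 8 to 148. The difference between the sets had 616 with array weights and 0 to 1 with a mouse left out.

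The mouse number as a replicate block left 1 gene called in the 21 mice, 1 at 150 cGy, 1 at 600 cGy, 1 for the difference between doses and 2 for that between irradiated and unirradiated mice. No same-numbered irradiated pair was the best match of its mouse. Of the 20 genes called in the 21 mice, Prok2 alone was called under every setting tried. Socs3, which was called under none of these, turned from -0.02 to 0.17 with the block, to 0.0053 with the mean of probe sets, and to 0.0070 to 0.069 when GCSF mouse 3 (0.034) or 4 (0.069) or untreated mouse 5 (0.037), 6 (0.039) or 8 (0.033) at 150 cGy, or GCSF mouse 1 at 600 cGy (0.0070), was left out, and its lowest value with a mouse left out was -0.0981. The causes were not tested. No called gene changed direction. The number of mice limits what differences could be called.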

Other observations

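Each sex was fitted alone in the sex and treatment set, with the 2 untreated mice at 300 cGy that stood apart included. The Steap4 differences were 2.21 ± 0.34 in 29 females and 1.72 ± 0.31 in 30 males, and the Ifitm1 differences were 2.69 ± 0.30 and 0.98 ± 0.19. The difference between the sexes was not tested. Kit, which rose in the 21 mice, differed by 0.10 ± 0.17 in females and by 0.69 ± 0.15 in males, and Ltb4r1 by 1.41 ± 0.15 and 1.10 ± 0.16.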
